A study of Mus musculus with 6 samples.

Results

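The lysosomal cathepsins are the proteases of the acidic compartment in which cells break down what they take up and what they recycle. The 10 genes described here were chosen by symbol, as Ctsa, Ctsb, Ctsc, Ctsd, Ctsh, Ctsk, Ctsl, Ctss, Ctsz and Lgmn, out of 22623 genes, and each was present in all 6 libraries. Most cathepsins are cysteine proteases made as inactive precursors, carried to the lysosome by the mannose 6-phosphate route and activated there by low pH. Macrophages and other phagocytes are known for abundant lysosomal proteases, which they use to degrade engulfed material and to prepare antigens for MHC class II molecules. Tumor cells also make and secrete some of them.

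Nuclei came from whole subcutaneous TC1 tumors, a transplantable mouse lung epithelial tumor line, grown in mice of the C57BL/6 background. All host mice were young males that carried MCT2 (Slc16a7, a monocarboxylate transporter) alleles flanked by loxP sites together with an inducible, systemic Cre. Mice given tamoxifen for 5 days at 8 weeks of age formed the MCT2 KO group, and vehicle-treated mice of the same genotype formed the MCT2 CO group. Tumor cells were injected 2 days later, and tumors were taken after 24 days, with 3 libraries in each group. The Cre is not limited to macrophages and acts on the host, while the injected TC1 cells are a separate line. The labels name the tissue as lung. Some samples were washed more often than others before loading, and the labels do not say which.

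KO1, KO2 and KO3 below are the libraries of MCT2 KO replicates 1, 2 and 3, and CO1, CO2 and CO3 those of MCT2 CO. The libraries held 13252572 to 22057084 UMIs, and 17534 of 18865 barcodes were kept. Nuclei were put into classes from the UMIs of marker genes that include no cathepsin. This gave 1460 Mrc1-positive macrophage nuclei (80 to 411 per library), 414 monocyte nuclei (10 to 177), 50 dendritic nuclei (3 to 15), 9785 tumor nuclei (917 to 2718) and 36 fibroblast nuclei (3 to 10). The summed macrophage markers reached 1865 to 3575 CPM (UMIs scaled to a total of 1000000 per library and class) in macrophage nuclei and 26.0 to 201 CPM in tumor nuclei, a gap that the class rule itself sets. In a clustering of all nuclei, 1260 of the macrophage and 8930 of the tumor nuclei fell in clusters of the same class. The clusters were made from the same counts and named by the same marker lists, so this agreement is in part built in. The macrophage clusters held 4456 nuclei in all. The other labels matched their clusters less often. Of 414 monocyte nuclei, 256 lay in the monocyte cluster and 85 in macrophage clusters. Of 50 dendritic nuclei, 5 lay in the dendritic cluster and 28 in the monocyte cluster. Of 36 fibroblast nuclei, 22 lay in the fibroblast cluster and 12 in tumor clusters. Values for dendritic and fibroblast nuclei are given as measured on those few nuclei. Slc16a7 itself was read at 88.9, 92.3 and 215 CPM in the macrophage nuclei of the MCT2 CO libraries and at 138, 190 and 209 CPM in those of the MCT2 KO libraries. It was not lower in the KO libraries, but these are tags at the 3′ end and the deleted stretch is not given in the sources used here, so this is no check of the knockout. Over all genes KO1 lay nearer to CO1 and CO2 (chi-square per degree of freedom 16.0 and 14.6) than to KO2 and KO3 (204 and 96.3). CO3 also lay nearer to KO3 (27.1) than to CO1 and CO2 (52.6 and 33.4), so libraries of both groups crossed. The comparisons of KO with CO are given with and without KO1.

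The DNA before the start sites of the members is shown first, because the lysosomal genes are textbook targets of TFEB and its relatives, whose binding element contains CACGTG, and because PU.1, the factor of myeloid cells, binds GAGGAA. RefSeq start sites (GRCm38.p6) were found for 8 of the 10 members, and the 250 bases before each were searched on both strands. CACGTG is its own reverse complement, and GAGGAA reads TTCCTC on the other strand. CACGTG was present for 4 of 8 members, Ctsa, Ctsd, Ctsl and Lgmn, against 6.86% of all genes with a start site in the table. Ctsa and Lgmn had a further start site within the gene, and CACGTG lay before that one only. The only Ctsl start site also lay within the gene as annotated, which begins at 64370890 on the minus strand. Its CACGTG thus lay inside the gene too. For Ctsd, annotated from 142388038 on the minus strand, the stretch at 142387910 lay inside the gene and the stretch at 142388057 before it. By start site it was present for 4 of 10, against 6.02% of all start sites. The longer TCACGTGA, which contains it, was present for Ctsa and Ctsd, against 0.907% of genes. The stretches below carry CACGTG in capitals with up to 10 bases on each side, read 5′ to 3′ on the strand of the gene.
Ctsa, chr2:164833751-164833772, plus strand: agcaaactgtCACGTGatgcag
Ctsd, chr7:142387910-142387935, minus strand: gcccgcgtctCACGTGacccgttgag
Ctsd, chr7:142388057-142388077, minus strand: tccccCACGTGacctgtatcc
Lgmn, chr12:102439126-102439151, minus strand: gaatgtctgtCACGTGgtccatttta
Ctsl, chr13:64370741-64370766, minus strand: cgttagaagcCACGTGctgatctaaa

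GAGGAA was present for 3 of 8 members, Ctsc, Ctsk and Ctss, against 25.9% of genes, a share close to that of all genes. The longer GAGGAAGT was present for Ctsc, against 2.79% of genes. The stretches of all 3 members are shown, since Ctss and Ctsc were far higher in macrophage than in tumor nuclei and Ctsk was near 0 in both. Capitals mark GAGGAA or its reverse complement.
Ctss, chr3:95526612-95526637, plus strand: cacagggttgGAGGAAaactttgtcc
Ctsk, chr3:95498967-95498992, plus strand: cagacattttGAGGAAgaatggagac
Ctsk, chr3:95499142-95499167, plus strand: atgtgtgtccTTCCTCcctaacccct
Ctsc, chr7:88277879-88277904, plus strand: actttccttcTTCCTCctagtggtgc
Ctsc, chr7:88277926-88277951, plus strand: actaactaacTTCCTCaggccacctc
These are matches of letters in a window and were not measured as binding in these tumors. The motifs were chosen with the results known. Ctsb and Ctsh had no entry in the table.

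Ctsh, Ctss, Ctsc and Lgmn were higher in macrophage and monocyte nuclei than in tumor nuclei by more than the other members were, and in dendritic nuclei this held for Ctsh, Ctss and Ctsc, while Lgmn was not called there against tumor nuclei. Ctsh is an aminopeptidase of the lysosome, Ctss an endopeptidase that trims the invariant chain of MHC class II in antigen-presenting cells, Ctsc a dipeptidyl peptidase that activates serine proteases of immune granules, and Lgmn (legumain) an asparagine-specific endopeptidase that processes other cathepsins. Their levels over the 5 classes are plotted per library. CPM values are compared between classes of nuclei within a gene, not between genes, since they are not divided by length.

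**Figure D1:**
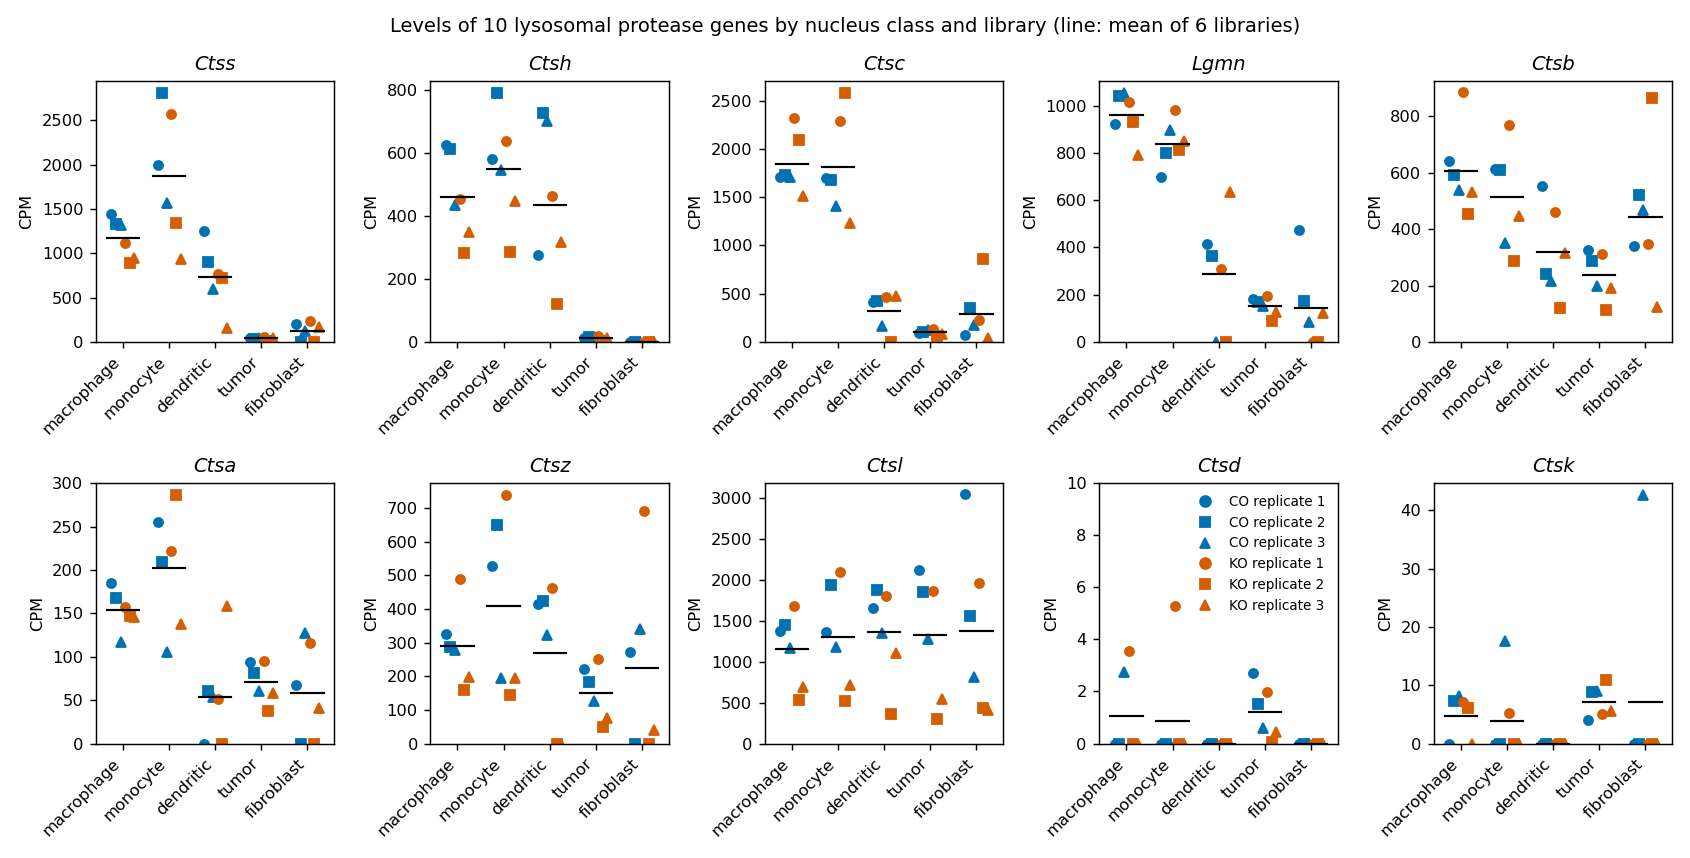
Level of each gene (CPM, linear axes that start at 0 and differ between panels) in macrophage, monocyte, dendritic, tumor and fibroblast nuclei, with 1 point per library, MCT2 CO in blue and MCT2 KO in orange, and a line at the mean of 6 libraries. Ctsh, Ctss, Ctsc and Lgmn stand higher in macrophage and monocyte nuclei than in tumor nuclei in all 6 libraries, while the Ctsl points of the 5 classes overlap.

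Ctsh was measured at 625, 612 and 433 CPM in the macrophage nuclei of CO1, CO2 and CO3, and at 452, 281 and 350 CPM in those of KO1, KO2 and KO3. In tumor nuclei of the same libraries it was 12.2, 15.2 and 15.2 CPM in CO and 18.5, 3.75 and 13.5 CPM in KO. Macrophage and tumor nuclei did not overlap in any library. Ctss reached 1174 ± 223 CPM in macrophage nuclei (SD, n = 6 libraries) and 39.7 ± 14.2 CPM in tumor nuclei. Ctsc reached 1846 ± 300 CPM in macrophage nuclei and 102 ± 25.8 CPM in tumor nuclei. The lowest macrophage library for Ctsc, KO3 at 1512 CPM, stood far above the highest tumor library, KO1 at 135 CPM. Lgmn reached 960 ± 98.6 CPM in macrophage nuclei, with the smallest spread over libraries relative to its mean of these 4 genes there, and 152 ± 38.7 CPM in tumor nuclei.

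In one fit of all classes and libraries, 3054 genes passed the filter on low counts, among them 8 of the 10 members. Ctsd and Ctsk did not pass. The filter asks for enough counts in a number of sums of any class, so a gene high in the myeloid classes alone can pass. Ctsh, Ctss, Ctsa and Ctsc, at means of 13.1, 39.7, 71.2 and 102 CPM in tumor nuclei, passed on their myeloid sums. Counts of members called higher in myeloid nuclei carry this limit, and so do the shares of all genes beside them. A gene was called at an adjusted p of at most 0.05 and a log2 fold change of at least 0.58 in size, by the edgeR quasi-likelihood test. 7 of the 8 members were called higher in macrophage than in tumor nuclei, where 29.9% of all genes tested were called higher and 27.6% lower. The log2 difference was 4.99 (SE 0.17, adjusted p = 6.99e-33) for Ctsh, 4.76 (SE 0.23, adjusted p = 3.47e-27) for Ctss and 4.01 (SE 0.21, adjusted p = 1.09e-25) for Ctsc. It was 2.51 (SE 0.18) for Lgmn. The median over the 8 members was 1.86, and over all genes tested 0.02.

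Ctsb, Ctsa and Ctsz were also called higher in macrophage nuclei but by less. Ctsb, a cysteine protease that acts as an endopeptidase and removes dipeptides from C termini, was measured at 607 ± 151 CPM in macrophage nuclei and 238 ± 83.5 CPM in tumor nuclei, a log2 difference of 1.21 (SE 0.15). Ctsa, a serine carboxypeptidase that also protects lysosomal galactosidase and neuraminidase, was at 153 ± 23.1 and 71.2 ± 22.7 CPM, a log2 difference of 0.93 (SE 0.15). Ctsz, a carboxypeptidase, was at 290 ± 116 and 151 ± 81.0 CPM, a log2 difference of 0.83 (SE 0.16). Within each library all 3 genes were higher in macrophage than in tumor nuclei. The Ctsz call was lost on thinned nuclei (log2 0.43), with no library block (log2 0.77) and without KO3 (log2 0.55).

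Ctsl, an endopeptidase with broad substrates, was the member not called. It was read at 1372, 1447 and 1161 CPM in the macrophage nuclei of CO1, CO2 and CO3, and at 1686, 538 and 692 CPM in those of KO1, KO2 and KO3. In tumor nuclei it was at 2116, 1845 and 1278 CPM in the CO libraries and at 1860, 300.3 and 548 CPM in the KO libraries. Both classes were high in CO1, CO2, CO3 and KO1 and low in KO2 and KO3. The log2 difference of macrophage from tumor nuclei was -0.21 (SE 0.21, adjusted p = 0.368, edgeR). It turned to 0.17 with nuclei of at least 500 genes and under 5% mitochondrial UMIs, and stayed uncalled. Ctsl was at 1302 ± 633 CPM in monocyte, 1358 ± 568 CPM in dendritic and 1372 ± 1031 CPM in fibroblast nuclei, and none of the 10 pairs of classes was called for it.

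The level of each member in tumor nuclei was set against that of genes that myeloid cells use, since droplets also carry RNA from other nuclei. For 16 myeloid genes that took no part in choosing the classes (Tyrobp, Spi1, Lyz2 and others), the pooled level in tumor nuclei was 1.08 to 27.1% of that in macrophage nuclei, with a median of 6.11%. Ctsh stood at 2.66%, Ctss at 3.23% and Ctsc at 5.41%, all below that median, and tumor levels of this size are not read as expression here. Lgmn stood at 15.9%, above 15 of the 16 genes, since the top of the range is Apbb1ip alone and the next, Alox5ap, was at 11.0%. Ctsb stood at 37.8%, Ctsa at 46.9%, Ctsz at 49.7% and Ctsl at 109%, all above the 16 genes. In the other direction, the tumor markers in macrophage nuclei stood at 5.89, 6.23 and 4.81% of their tumor level in CO1, CO2 and CO3 and at 5.97, 8.68 and 11.4% in KO1, KO2 and KO3. These markers took part in choosing the classes, which limits how high they can stand in macrophage nuclei. The part of tumor RNA in the macrophage values was not tested.

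**Figure D2:**
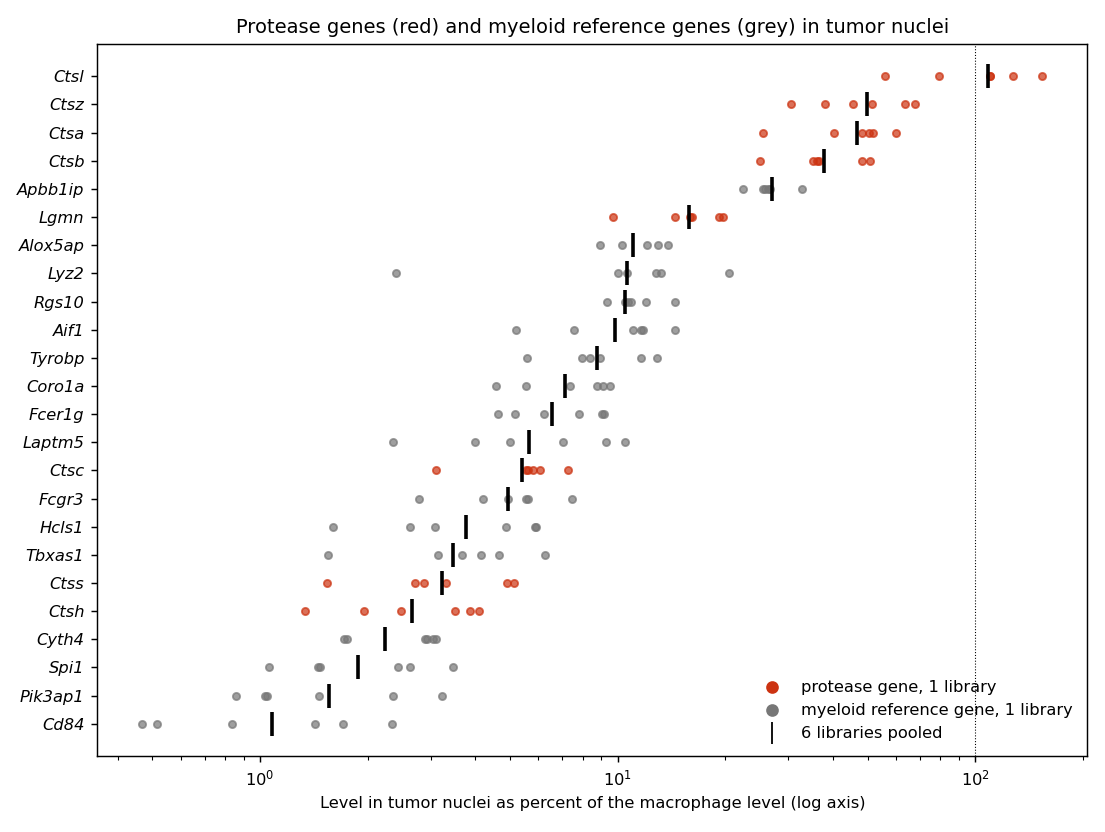
Level in tumor nuclei as a percent of the level in macrophage nuclei (log axis) for the cathepsins and for 16 myeloid reference genes, with 1 point per library (cathepsins in red, reference genes in grey) and a black tick for the 6 libraries pooled. The pooled values of Ctsh, Ctss and Ctsc lie among those of the myeloid reference genes, Lgmn lies above 15 of the 16, and Ctsb, Ctsa, Ctsz and Ctsl lie above all 16, with Ctsl at 109%.

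The share of nuclei with at least 1 UMI gave the same picture once depth was made equal. Each nucleus was thinned to 1000 UMIs, which left out 373 macrophage and 748 tumor nuclei as too shallow. Ctsc was then detected in 74.9% of macrophage and 10.4% of tumor nuclei (mean of 6 libraries; 82.3% and 40.0% unthinned). Ctss was detected in 63.8% and 4.41% (71.4% and 19.0% unthinned), and Ctsh in 33.8% and 1.47% (44.7% and 7.27% unthinned). Lgmn was detected in 59.0% and 14.8% (68.2% and 53.6% unthinned). For Ctsb the order of the classes turned with depth, from 42.2% of macrophage and 22.01% of tumor nuclei when thinned to 54.8% and 65.2% unthinned. Median depth was 1294 UMIs in macrophage and 5002 UMIs in tumor nuclei. Ctsl was detected in 67.3% of macrophage and 63.5% of tumor nuclei after thinning.

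Macrophage and monocyte nuclei differed little in these genes. Ctss was the member called, at 1867 ± 726 CPM in monocyte nuclei against 1174 ± 223 CPM in macrophage nuclei, a log2 difference of macrophage from monocyte nuclei of -0.68 (SE 0.21, adjusted p = 0.0243, edgeR), where 7.04% of genes were called lower. Ctss was lower in macrophage nuclei in 5 of 6 libraries, KO3 being the other with 949 CPM in macrophage and 930.4 CPM in monocyte nuclei. The call did not hold with DESeq2 (log2 -0.28), with the stricter class rule (log2 -0.54), with clusters made within each library (log2 -0.45), with no library block (log2 -0.77) or without the low-count filter (log2 -0.49). It was also lost without CO1 (log2 -0.67), without CO2 (log2 -0.56) and without KO1 (log2 -0.50). Ctsz was at 290 ± 116 CPM in macrophage and 408 ± 262 CPM in monocyte nuclei, a log2 difference of -0.56 (adjusted p = 0.0556, edgeR) that was not called. It was called on thinned nuclei (log2 -0.70), under the stricter class rule (log2 -0.63), with joint clusters (log2 -0.60), and without CO3 (log2 -0.68), KO2 (log2 -0.61) or KO3 (log2 -0.61). Ctsc was at 1815 ± 519 CPM, Lgmn at 840 ± 96.2 CPM, Ctsh at 548 ± 171 CPM, Ctsb at 513 ± 183 CPM and Ctsa at 203 ± 69.0 CPM in monocyte nuclei. None of these was called against macrophage nuclei. Monocyte nuclei were called higher than tumor nuclei for the same 7 members as macrophage nuclei, where 32.9% of genes were called higher, with log2 differences from 1.04 for Ctsb to 5.44 for Ctss. The Ctsb call was lost with DESeq2 (log2 0.46).

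Dendritic nuclei shared high Ctsh with macrophages but had less Ctsc and Lgmn. Ctsc was at 323 ± 196 CPM and Lgmn at 287 ± 248 CPM in dendritic nuclei, and macrophage nuclei were higher by log2 2.84 (SE 0.33) and 2.27 (SE 0.37). Ctsa (log2 1.83), Ctsb (1.31) and Ctss (1.03) were called higher in macrophage nuclei too, so 5 of 8 members were, where 8.32% of genes were called higher. The Ctsa call was lost under 8 other settings, among them without CO1 (log2 1.74), KO2 (log2 1.64) or KO3 (log2 1.97), and the Ctss call under 5, among them without CO2 (log2 0.91) or KO3 (log2 0.81). Ctsh was at 434 ± 243 CPM in dendritic nuclei and was not called against macrophage nuclei. Against tumor nuclei, Ctsh (log2 4.76), Ctss (3.73) and Ctsc (1.17) were called higher in dendritic nuclei, where 17.4% of genes were called higher. Monocyte nuclei were called higher than dendritic nuclei for Ctsc, Ctsa, Lgmn, Ctss and Ctsb, 5 of 8 members, where 5.93% of genes were called higher. Of these the Ctsb call was lost without CO2 (log2 0.84), KO1 (log2 1.18) or KO3 (log2 0.98). Since 28 of the 50 dendritic nuclei lay in the monocyte cluster, these values rest on a class that the clustering did not hold: in the dendritic cluster of 48 nuclei the Ctsc difference from tumor nuclei was log2 -0.05, and it was also not called without CO2 (log2 0.96), KO1 (log2 0.97) or KO3 (log2 1.02).

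Fibroblast nuclei held no UMI of Ctsh. With 3 UMIs over the whole group as the floor (37.9 CPM), pooled Ctsh was at least 12.6-fold higher in macrophage, 15.9-fold in monocyte and 13.5-fold in dendritic nuclei. Macrophage nuclei were also called higher for Ctsc (log2 3.85), Ctss (3.30), Lgmn (2.86) and Ctsb (1.14), so 5 of 8 members were, where 27.5% of genes were called higher. Monocyte nuclei were called higher for 7 of 8 members, where 29.4% of genes were called higher, and dendritic nuclei for Ctsh and Ctss (log2 2.27), where 13.7% were. Between tumor and fibroblast nuclei no member was called, where 20.1% of genes were called in either direction. The Ctsb call of macrophage nuclei was lost without KO1 (log2 0.68) or KO3 (log2 0.63). In monocyte nuclei the Ctsa call was lost without CO1 (log2 1.44) or KO3 (log2 1.24), and the Ctsb and Ctsz calls were lost without CO1 (log2 0.84 and 1.03), CO2 (0.65 and 0.54), KO1 (0.43 and 0.91) or KO3 (0.43 and 0.66). These values rest on 36 nuclei, of which 12 lay in tumor clusters.

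Ctsd and Ctsk were near 0 in every class. Ctsd, the aspartic protease of the lysosome, gave 3 UMIs in macrophage nuclei (1.31 CPM pooled) and 92 in tumor nuclei (1.31 CPM), out of 105 in all nuclei. Its exons share 808 of 2351 bases (34.4%) with those of the same-strand gene model Gm49369, which gave 14 UMIs, and Cell Ranger does not count tags that fit both genes, so the Ctsd level is uncertain. Ctsk, a collagen-degrading cathepsin best known from osteoclasts, gave 11 UMIs in macrophage nuclei (4.79 CPM pooled) and 500 in tumor nuclei (7.14 CPM). It lies 17423 bases from Ctss on chromosome 3, and the levels of these neighbors in macrophage nuclei were far apart. Ctsk was detected in 0.662% of macrophage and 0.591% of tumor nuclei after thinning.

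The Mrc1-positive nuclei are part of a larger population, since 3073 nuclei that the class rule left unassigned lay in macrophage clusters of the joint clustering. Of the 2 macrophage clusters, the cluster led by Mrc1 (2508 nuclei) held Ctsl at 1069 ± 413 CPM (mean and SD of 6 libraries) and the cluster led by Pou2f2 (1948 nuclei) held it at 1947 ± 563 CPM. Ctsl was higher in the latter in each of the 6 libraries, from 1107 CPM in KO2 to 2487 CPM in KO1. Ctsc ran the other way, at 1700 ± 235 CPM in the former and 1218 ± 352 CPM in the latter, with CO1 as the library where both were alike (1606 and 1623 CPM). Ctsk gave 20 UMIs in the former (4.91 CPM pooled) and 54 in the latter (33.98 CPM pooled), where 44 came from KO1. Relative to their libraries, nuclei of the cluster led by Pou2f2 were shallower than those of the cluster led by Mrc1 (median UMI ratio 0.362 against 0.617). That cluster also had more tumor markers detected (3 against 1) and a higher mean doublet score (0.0782 against 0.0554). The part of tumor RNA in these differences was not tested. Over the tumor clusters the mean of Ctsl ran from 1158 to 2560 CPM. These are descriptions with no test, since the clusters were made from nearly all genes.

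**Figure D3:**
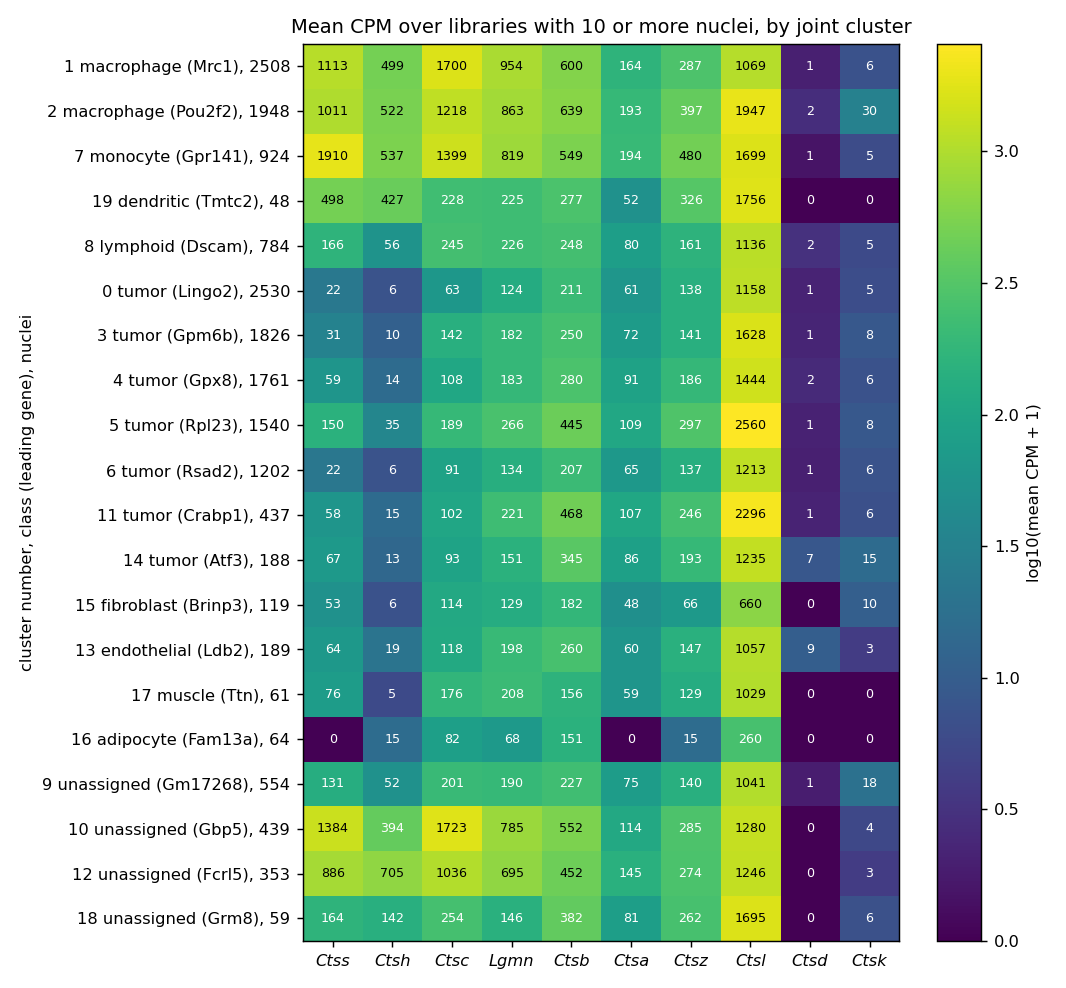
Mean level of each gene (number in each cell, CPM over libraries with at least 10 nuclei of the cluster, colored by log10 of the mean CPM plus 1) in the 20 clusters of the joint clustering, 1 row per cluster with its class, leading gene and number of nuclei. Ctsl runs from 1158 to 2560 CPM over the tumor rows and from 1069 to 1947 CPM over the macrophage and monocyte rows, while Ctsc, Ctss and Ctsh are high in the macrophage and monocyte rows and low in the tumor rows.

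The genes whose pattern was most like that of each member were found over the 30 sums of 5 classes and 6 libraries, by Pearson correlation of log2 CPM over the 3054 genes. Ctsh ran most closely with Arhgap45 (r = 0.99) and Tm6sf1 (r = 0.99), Ctss with Zfp710 (r = 0.94), and Ctsc with Apoe (r = 0.88) and Frmd4b (r = 0.85). Lgmn ran most closely with Tlr4 (r = 0.86) and Ppt1 (r = 0.85), and Ctsb with Ctsc (r = 0.80) and Lyz2 (r = 0.77). Ppt1 encodes another lysosomal hydrolase. Ctsl ran most closely with H2-K1 (r = 0.90), an MHC class I gene, and Gm20388 (r = 0.90), Ctsz with Mdh2 (r = 0.97) and Cxcl10 (r = 0.96), and Ctsa with Dbi (r = 0.96) and March5 (r = 0.96). The points share libraries and depth, so these are descriptions.

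Other genes of the lysosome were read from lists of its parts, against 29.9% of all genes called higher and 27.6% called lower in macrophage against tumor nuclei. The low-count filter left 9 of 31 other hydrolases, 10 of 16 proton pump, 7 of 15 membrane and 3 of 10 sorting genes. It also left 3 of 5 transcription factors, 2 of 8 cystatins and 1 of 6 other cathepsins. A gene high in the myeloid classes alone can pass, so the counts cover a filtered part of each list. In macrophage against tumor nuclei 7 of 9 tested other hydrolases were called higher, led by Manba (log2 4.09), a mannosidase, and Man2b1 (log2 2.52), and Arsb, a sulfatase, was called lower (log2 -1.04). Of the vacuolar proton pump, which acidifies the lysosome, 6 of 10 tested genes were called higher, led by Atp6v0a1 (log2 1.80) and Atp6v0d1 (log2 1.57). Of the membrane proteins, 2 of 7 were called higher, Scarb2 (log2 1.61) and Slc38a9 (log2 1.38), a share near that of all genes, and none lower. Of the sorting genes, Gnptab (log2 2.41), which makes the mannose 6-phosphate tag, and Psap (log2 0.92) were called higher and Igf2r (log2 -3.11), a receptor for that tag, was called lower, out of 3 tested. Tfeb (log2 2.00) and Mitf (log2 1.83) were called higher out of 3 lysosomal transcription factors tested. Neither of 2 cystatins tested, Cstb (log2 0.38) and Cst3 (log2 0.24), inhibitors of cysteine cathepsins, was called. The aspartic protease Napsa (log2 3.37) was the one other cathepsin-type protease tested, and it was called higher.

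MCT2 KO and MCT2 CO libraries were then compared within each class. No cathepsin was called in macrophage, monocyte or tumor nuclei or in all nuclei together, and no gene of the whole transcriptome was called either (0% of 6981 genes in macrophage, 1959 in monocyte, 13201 in tumor and 13666 in all nuclei, edgeR). An unadjusted p under 0.05 was given to 341 (4.88%), 52 (2.65%), 849 (6.43%) and 669 (4.90%) of these genes, and to 1 member, Ctsh in macrophage nuclei. DESeq2 called 0, 0, 20 and 11. Dendritic and fibroblast nuclei, with fewer than 10 nuclei in some libraries, were not tested. The study itself reports Ctsl as significantly lower in KO macrophages, by a Wilcoxon rank-sum test with single nuclei as the unit. It also tested sums per sample and cell type with DESeq2, and its main text does not name Ctsl there. The choice of Ctsl is thus not independent of these libraries.

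**Figure D4:**
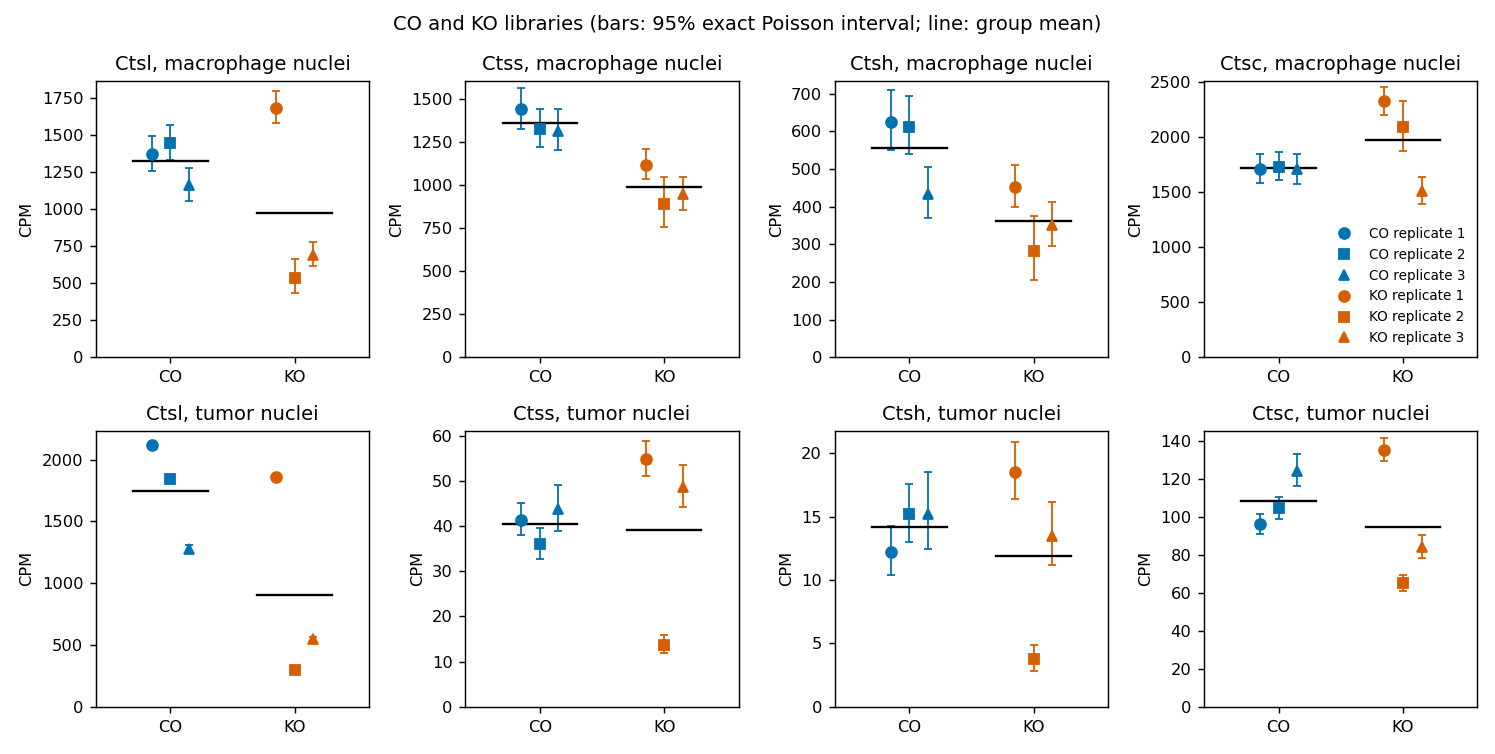
Level of Ctsl, Ctss, Ctsh and Ctsc (CPM, axes from 0) in macrophage nuclei (top) and tumor nuclei (bottom) of each MCT2 CO and MCT2 KO library, with bars for the 95% exact Poisson interval, which covers counting error only, and a line at the group mean. For Ctsl the KO1 point lies with or above CO points and KO2 and KO3 lie below all of them in both classes, and for Ctss in macrophage nuclei the groups do not overlap.

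Ctss in macrophage nuclei was at 1441, 1328 and 1317 CPM in CO1, CO2 and CO3, and at 1120, 893 and 949 CPM in KO1, KO2 and KO3. The groups did not overlap, which was so for 5.86% of genes tested in that direction. The log2 difference of KO from CO was -0.43 (SE 0.24, adjusted p = 0.901, edgeR). In tumor nuclei Ctss was at 41.4, 36.0 and 43.7 CPM in CO and 54.8, 13.8 and 48.7 CPM in KO, with overlap. For Ctsh in macrophage nuclei, given by library above, KO1 stood above CO3, and the log2 difference was -0.58 (SE 0.26, adjusted p = 0.901, edgeR). For Ctsl in macrophage nuclei the log2 difference was -0.41 (SE 0.37, adjusted p = 0.901, edgeR). Of the 8 members tested there, 6 lay below 0, where 47.9% of all genes did. The other 5 members ran from -0.10 for Lgmn to 0.24 for Ctsc.

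In tumor nuclei 9 of 10 members lay below 0 (8 of 10 with RLE scaling or DESeq2, where Ctss turned to 0.0051 and 0.003), where 51.8% of all genes did, and none was called. The log2 difference of KO from CO was -0.92 (SE 0.62, adjusted p = 0.588, edgeR) for Ctsl, -0.46 for Ctsz and -0.34 for Ctsb. Ctsd, with few UMIs, was also at -0.92 (SE 0.92, adjusted p = 0.643, edgeR). The test of whether the change differed between macrophage and tumor nuclei called no gene of 12312 (0%). It gave Ctsl a log2 difference of 0.55 (adjusted p = 0.707, edgeR) and Ctss -0.40.

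**Figure D5:**
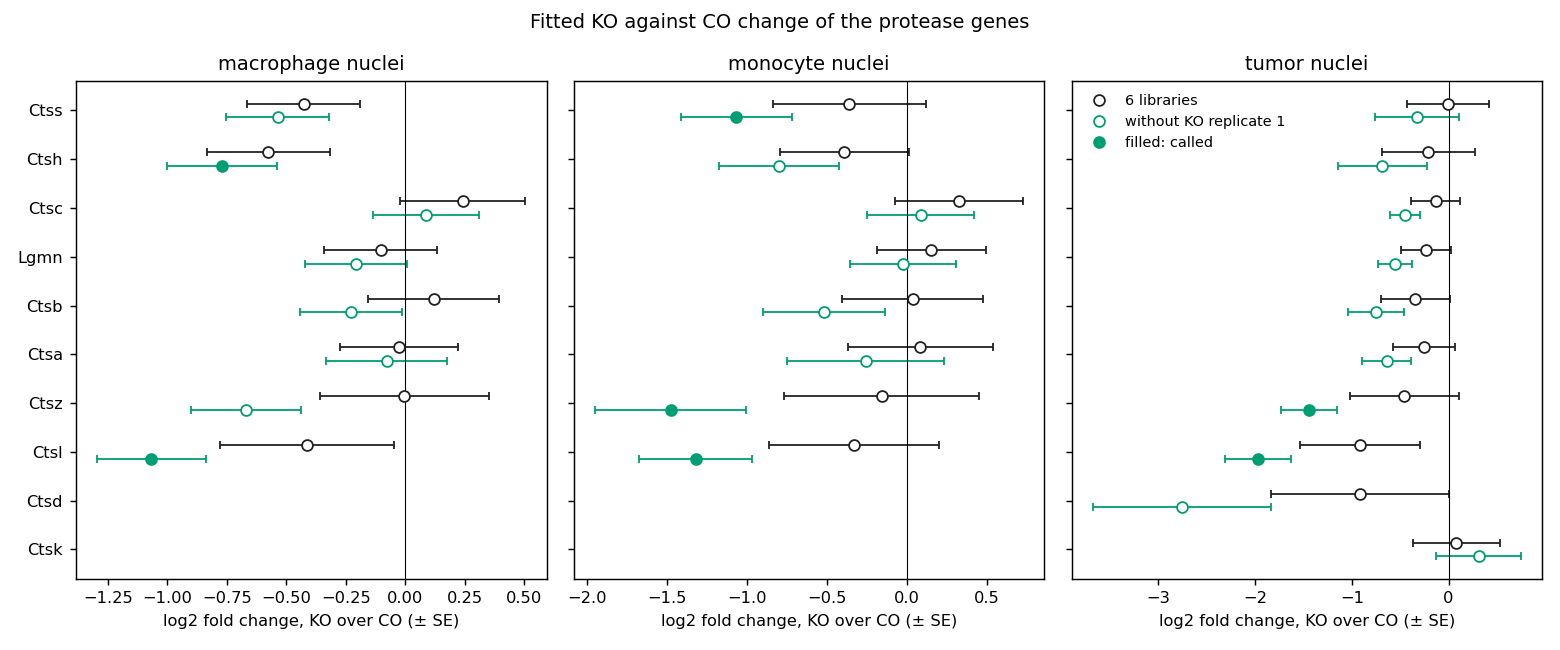
Log2 fold change of MCT2 KO over MCT2 CO for each cathepsin in macrophage, monocyte and tumor nuclei, with bars of 1 standard error, in all 6 libraries (black) and without KO1 (green, filled where called). With 6 libraries no value was called. Without KO1 the values called were Ctsl and Ctsh in macrophage, Ctsl, Ctsz and Ctss in monocyte and Ctsl and Ctsz in tumor nuclei. KO1 was picked out from these same values, so the green values are no independent test.

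Of the libraries left out in turn, only KO1 changed the number of genes called within a class. For Ctsl and Ctsz KO1 stood with or above the CO libraries and above KO2 and KO3 in all 3 classes. KO1 was picked out from these same values, since it lay near CO libraries. The calls and p-values without it thus describe the remaining libraries and are no independent test of KO against CO. Without KO1, edgeR called 690 genes in macrophage (9.44%), 194 in monocyte (10.7%) and 2539 in tumor nuclei (19.1%), and none in all nuclei together. In macrophage nuclei Ctsl (log2 -1.07, adjusted p = 0.00455) and Ctsh (log2 -0.77, adjusted p = 0.0373) were then called lower, 2 of 8 members, where 5.98% of genes were called lower. In monocyte nuclei Ctsl (log2 -1.32, adjusted p = 0.0125), Ctsz (log2 -1.48, adjusted p = 0.0370) and Ctss (log2 -1.07, adjusted p = 0.0414) were called lower, 3 of 8 members, where 7.99% were. The KO side there was 10 monocyte nuclei of KO2 and 47 of KO3. In tumor nuclei Ctsl (log2 -1.97, adjusted p = 0.0303) and Ctsz (log2 -1.44, adjusted p = 0.0310) were called lower, 2 of 10 members, where 13.1% were. No member was called for the difference between macrophage and tumor nuclei, where 0.337% of genes were. Leaving out any other library called no gene within a class.

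The median share of mitochondrial UMIs in tumor nuclei was 9.58, 8.60 and 4.52% in CO1, CO2 and CO3 and 9.20, 4.91 and 1.93% in KO1, KO2 and KO3. The libraries with the highest Ctsl in tumor nuclei, CO1, KO1 and CO2, had the highest shares, while CO3 and KO2 had shares near each other with Ctsl at 1278 and 300.3 CPM, and the part of these shares in the result was not tested. The tumor markers in macrophage nuclei, at 4.81 to 6.23% of their tumor level in CO, were at 5.97% in KO1 and at 8.68 and 11.4% in KO2 and KO3, and their part was not tested. In macrophage nuclei with Ctsl low in KO2 and KO3, Ctsc was at 2091 and 1512 CPM against 1706 to 1729 CPM in the CO libraries, and Lgmn at 929 and 793 CPM against 925 to 1052 CPM. KO3 was thus below all CO libraries for both genes, while KO2 was above them for Ctsc and within their range for Lgmn.

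With all 6 libraries no gene of the other lysosomal lists was called between KO and CO. Of the genes with the smallest p in macrophage nuclei, Mitf was at log2 0.64 and Man2b1 at log2 -0.82 (both adjusted p = 0.901, edgeR). Without KO1, 6 of 69 tested genes of the lists were called lower in macrophage nuclei, where 5.98% of all genes were, and 1, Mitf (log2 0.69), was called higher, where 3.46% were. Those lower were Man2b1 (log2 -1.39), the cystatin Cst3 (log2 -1.29), the proton pump genes Atp6v0b (log2 -1.25) and Atp6v0c (log2 -1.16) and the membrane list's Lamp1 (log2 -0.93) and Npc2 (log2 -0.77). In monocyte nuclei 6 of 25 were called lower, where 7.99% of all genes were. These were Atp6v0b (log2 -1.78), Atp6v0c (log2 -1.78), Napsa (log2 -1.77), Cst3 (log2 -1.77), Npc2 (log2 -1.19) and Psap (log2 -1.06). In tumor nuclei 18 of 84 were called lower, where 13.1% were, led in the proton pump by Atp6v0c (log2 -1.63) and Atp6v0b (log2 -1.51), and in the other lists by Cst6 (log2 -3.14), Cst3 (log2 -1.81), Lamp1 (log2 -1.35), Npc2 (log2 -1.34), Nagpa (log2 -1.30), Fuca1 (log2 -1.05), Igf2r (log2 -0.998) and Asah1 (log2 -0.80). There 1, the galactosylceramidase gene Galc (log2 0.86), was called higher, where 6.00% were. In all nuclei together none of 86 was called.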

How the data were processed

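Single-nucleus RNA was sequenced from whole tumors, and the deposited files hold UMI counts per gene and barcode, which the authors made with Chromium 3′ v3.1 libraries and Cell Ranger on GRCm38. The submitters' processing notes give version 3.0.2 and the file headers 3.1.0. Ambient RNA correction is described in the methods, but the deposited counts were whole UMIs. Whether intronic reads were counted is not given in the sources used here.

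The members, gene lists, class markers and motifs were chosen with earlier results of these data known. All 10 members are named in the report, but not each with a value in every comparison. Of the lysosome lists, the 2 called genes with the largest fold in each direction are named, or where none is called up to 2 with the smallest p. For each member the 2 genes with the highest correlation are named, except 1 that is not reported here.

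Barcodes with 100 to 7500 genes and under 20% mitochondrial UMIs passed (18014). A doublet caller's automatic threshold marked 11 (0.0611%), which is too few to have worked, so the 480 highest scores (2.66%) were removed. 61 barcodes occurred in 2 or more libraries. No 2 libraries of a group agreed within sampling noise (chi-square per degree of freedom at least 8.93). The labels do not say that libraries come from separate animals, so p-values measure the spread between these libraries.

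A nucleus was put in a class from summed UMIs of leukocyte, tumor and stromal markers and, within leukocytes, of macrophage, monocyte, dendritic and lymphoid markers. Macrophage nuclei needed at least 1 Mrc1 UMI, and 801 of 1460 had exactly 1. In all 5373 nuclei were unassigned and 416 lymphoid. UMIs were summed per library and class and tested in edgeR 4.0.16 (R 4.3.3) with TMM factors, filterByExpr and the quasi-likelihood test, with Benjamini-Hochberg adjustment over all genes tested. Class pairs shared 1 fit with library as a block. CPM are UMIs scaled to 1000000 UMIs per sum, and intervals and floors cover counting error only. The tests were checked on simulated data with large changes in well-counted genes and a fixed spread. That check does not measure their power for the KO and CO libraries here. Alternatives were DESeq2 1.42.0, RLE scaling, no low-count filter, a replicate block, other nucleus filters, a stricter class rule, clustering within libraries and jointly (Scanpy 1.11.5), thinning to 1000 UMIs and leaving out each library. For a count of 0 the floor was 3 UMIs.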

Additional observations from a re-analysis of the deposited data

How the results depend on the processing

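Over all members, comparisons and alternatives, 1954 values were recomputed. The members called kept their direction in all but 1 of 657 values and fell below the threshold in 68. Of 901 values for members that were not called and whose differences are not printed here, 116 changed sign and 48 passed the threshold. The choice of which differences to print was made after these changes of sign were seen. The cause of the changes below was not tested. With DESeq2 the number of genes called was 20 for KO against CO in tumor (0 as reported), 11 for KO against CO in all (0 as reported), 653 for macrophage against monocyte (379 as reported), 2779 for macrophage against dendritic (354 as reported), 6335 for macrophage against tumor (1755 as reported), 3504 for macrophage against fibroblast (1111 as reported), 1051 for monocyte against dendritic (237 as reported), 6078 for monocyte against tumor (1924 as reported), 2253 for monocyte against fibroblast (1163 as reported), 5679 for dendritic against tumor (1266 as reported), 5273 for tumor against fibroblast (614 as reported) and 1 for the KO-CO change between macrophage and tumor (0 as reported). With RLE scaling the number of genes called was 395 for tumor against fibroblast. Without the low-count filter the number of genes called was 46 for KO against CO in macrophage, 4 for KO against CO in monocyte, 632 for macrophage against monocyte, 1554 for macrophage against dendritic, 6499 for macrophage against tumor, 2688 for macrophage against fibroblast, 870 for monocyte against dendritic, 5231 for monocyte against tumor, 2151 for monocyte against fibroblast, 3316 for dendritic against tumor, 2104 for tumor against fibroblast and 11 for the KO-CO change between macrophage and tumor. Without the library block the number of genes called was 146 for macrophage against monocyte (379 as reported). Without doublet removal the number of genes called was 2 for the KO-CO change between macrophage and tumor. With the stricter class rule the number of genes called was 675 for macrophage against monocyte, 856 for macrophage against dendritic, 2950 for macrophage against tumor, 321 for macrophage against fibroblast, 512 for monocyte against dendritic, 261 for monocyte against fibroblast, 1914 for dendritic against tumor, 12 for dendritic against fibroblast, 256 for tumor against fibroblast and 17 for the KO-CO change between macrophage and tumor. With clusters made within each library the number of genes called was 77 for macrophage against monocyte, 5839 for macrophage against tumor, 1778 for macrophage against fibroblast, 4982 for monocyte against tumor and 2156 for dendritic against tumor. With nuclei thinned to 1000 UMIs the number of genes called was 221 for macrophage against monocyte, 226 for macrophage against dendritic, 986 for macrophage against tumor, 588 for macrophage against fibroblast, 1032 for monocyte against tumor, 590 for monocyte against fibroblast, 707 for dendritic against tumor, 280 for dendritic against fibroblast, 319 for tumor against fibroblast and 4 for the KO-CO change between macrophage and tumor. With joint clusters, an alternative chosen after seeing the data, the number of genes called was 704 for macrophage against monocyte, 1102 for macrophage against dendritic, 3057 for macrophage against tumor, 2642 for macrophage against fibroblast, 988 for monocyte against dendritic, 3306 for monocyte against tumor, 2846 for monocyte against fibroblast and 959 for dendritic against fibroblast. Scaling moved the balance of genes called higher to lower. It was, as reported, with RLE scaling and with DESeq2, 164 to 215, 228 to 173 and 542 to 111 for macrophage against monocyte, 254 to 100, 158 to 127 and 2672 to 107 for macrophage against dendritic, 913 to 842, 989 to 754 and 1799 to 4536 for macrophage against tumor, 840 to 271, 591 to 370 and 2921 to 583 for macrophage against fibroblast, 181 to 56, 100 to 98 and 997 to 54 for monocyte against dendritic, 1006 to 918, 1035 to 881 and 1416 to 4662 for monocyte against tumor, 897 to 266, 544 to 407 and 1847 to 406 for monocyte against fibroblast, 531 to 735, 687 to 488 and 895 to 4784 for dendritic against tumor and 495 to 119, 184 to 211 and 4681 to 592 for tumor against fibroblast. RLE scaling moved the median log2 difference of all genes by -0.23 for macrophage against dendritic, 0.12 for macrophage against tumor, -0.39 for macrophage against fibroblast, -0.31 for monocyte against dendritic, -0.47 for monocyte against fibroblast, 0.36 for dendritic against tumor, -0.15 for dendritic against fibroblast and -0.50 for tumor against fibroblast. The sign of some log2 differences changed. With DESeq2 the value was 0.003 for Ctss in KO against CO of tumor. With RLE scaling the value was 0.0051 for Ctss in KO against CO of tumor. Without the low-count filter the value was 0.001 for Ctss in KO against CO of tumor. Without doublet removal the value was -0.12 for Ctsk in KO against CO of tumor. With nuclei of at least 500 genes and under 5% mitochondrial UMIs the value was 0.15 for Ctsz in KO against CO of monocyte, 0.17 for Ctsl in macrophage against tumor and 0.14 for Ctss in the KO-CO change between macrophage and tumor. With the stricter class rule the value was 0.13 for Ctsa in KO against CO of macrophage, 0.14 for Ctsz in KO against CO of macrophage, 0.0071 for Ctsl in KO against CO of monocyte, 0.071 for Ctsz in KO against CO of monocyte and 0.086 for Ctss in KO against CO of tumor. With clusters made within each library the value was 0.0042 for Ctsz in KO against CO of macrophage, 0.51 for Ctsl in KO against CO of monocyte, 0.22 for Ctsz in KO against CO of monocyte, 0.13 for Ctsh in KO against CO of tumor and 0.31 for Ctss in KO against CO of tumor. With nuclei thinned to 1000 UMIs the value was 0.056 for Ctsz in KO against CO of macrophage, 0.12 for Ctsz in KO against CO of monocyte, -0.46 for Ctsk in KO against CO of tumor and 0.077 for Ctss in KO against CO of tumor. With joint clusters, an alternative chosen after seeing the data, the value was 0.26 for Ctsh in KO against CO of tumor, -0.21 for Ctsk in KO against CO of tumor, 0.35 for Ctss in KO against CO of tumor and -0.046 for Ctsc in dendritic against tumor. Leaving out each library in turn, the number of genes called ran from 0 to 690 for KO against CO in macrophage, 0 to 194 for KO against CO in monocyte, 0 to 2539 for KO against CO in tumor, 190 to 424 for macrophage against monocyte, 209 to 379 for macrophage against dendritic, 130 to 268 for monocyte against dendritic, 752 to 1236 for monocyte against fibroblast, 371 to 661 for tumor against fibroblast and 0 to 42 for the KO-CO change between macrophage and tumor. Log2 differences whose sign changed ran from -0.20 to 0.083 for Ctsa in KO against CO of macrophage, -0.23 to 0.27 for Ctsb in KO against CO of macrophage, -0.67 to 0.23 for Ctsz in KO against CO of macrophage, -1.32 to 0.021 for Ctsl in KO against CO of monocyte, -1.07 to 0.013 for Ctss in KO against CO of monocyte, -1.48 to 0.30 for Ctsz in KO against CO of monocyte, -0.45 to 0.040 for Ctsc in KO against CO of tumor, -0.68 to 0.20 for Ctsh in KO against CO of tumor, -0.43 to 0.31 for Ctsk in KO against CO of tumor, -0.32 to 0.38 for Ctss in KO against CO of tumor and -0.49 to 0.0057 for Ctsl in macrophage against tumor. Leaving out KO replicate 1 gave the highest counts for KO against CO, and the values without it stand in the report. Without thinning, the mean shares of nuclei with a UMI moved by more than their SD to 82.3% for Ctsc in macrophage nuclei, 40.0% for Ctsc in tumor nuclei, 19.0% for Ctss in tumor nuclei, 44.7% for Ctsh in macrophage nuclei, 7.27% for Ctsh in tumor nuclei, 68.2% for Lgmn in macrophage nuclei, 53.6% for Lgmn in tumor nuclei, 54.8% for Ctsb in macrophage nuclei, 65.2% for Ctsb in tumor nuclei and 93.0% for Ctsl in tumor nuclei. Whether the replicate numbers pair the libraries was not tested. Deviations of CO and KO libraries from their group means were correlated in the 4 sets of nuclei. Libraries of equal number correlated at 0.18 to 0.51 for replicate 1, -0.26 to -0.12 for replicate 2 and 0.18 to 0.41 for replicate 3. Libraries of unlike number ran from -0.54 to 0.37. With the replicate number as a block the number of genes called stayed at 0 in all 4, and Ctsl in macrophage nuclei was at -0.57. With 3 libraries per group, an exact permutation test could not go below p = 0.1, and the shallow dendritic and fibroblast sums limit every comparison that uses them.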
